A study of Mus musculus with 8 samples.

Results

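Tubulins are the subunits of microtubules. An alpha and a beta tubulin join into a dimer, dimers stack end to end into hollow filaments, and each subunit is encoded by several closely related genes. In hepatocytes microtubules carry vesicles with secreted proteins and lipoproteins, and in dividing cells the same subunits build the mitotic spindle. Vertebrate cells keep the supply of subunits in balance by degrading tubulin mRNA during translation when free dimers are plentiful.

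The 10 genes described here were the alpha tubulins Tuba1a, Tuba1b, Tuba1c, Tuba4a and Tuba8 and the beta tubulins Tubb2a, Tubb2b, Tubb4b, Tubb5 and Tubb6. Every probe set that the annotation paired with 1 of these genes and no other was taken, which gave 19 of 45037 probe sets. They covered 8 of the 10 genes, out of 18193 genes that had a probe set of their own. Tuba1b and Tuba1c had no probe set of their own, because 1 and 2 probe sets, respectively, paired them together with another gene entry, and no value is given for them. A filter on dim probe sets (mean log2 intensity at or under the 40th percentile of all) left 16 of the 19 for the test, out of 27022 in all, and the 3 that were left out all belonged to Tubb4b.

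RNA came from whole liver of male mice on high fat-high sucrose chow (the HFHS diet), either with the gene for phosphatidylethanolamine N-methyltransferase disrupted (Pemt-/-) or with it intact (Pemt+/+). This enzyme makes phosphatidylcholine from phosphatidylethanolamine. Each genotype had 4 arrays, 1 each after 1, 2, 3 and 4 weeks of the diet, and the question was how expression differs between the genotypes in each week. All 8 arrays were from HFHS-fed mice, so no comparison with another diet is made. The sources used here do not give the strain background, the age of the mice at each array, or whether the RNA on an array was that of a single mouse. The disruption is not described as limited to hepatocytes. Week is a term of the genotype model, so the p-values of the genotype difference below set it against how far the 4 weekly differences disagree. With 1 array per genotype and week, a difference that changes over the weeks and noise between arrays cannot be told apart in that spread. For the change per week, the spread is that of the arrays about the line of their genotype.

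The arrays matched their genotype labels. The Pemt probe set lay between 201 and 255 in Pemt-/- liver and between 4989 and 6045 in Pemt+/+ liver, a log2 difference of -4.54 (adjusted p = 5.00e-07). The position of its probes relative to the disruption is not known. Median intensities ran from 73.8 to 81.3, and the upper quartile was 384 to 425 on the Pemt-/- arrays and 363 to 370 on the Pemt+/+ arrays. Log2 values correlated across probe sets at 0.967 to 0.976 within Pemt-/-, 0.962 to 0.966 within Pemt+/+ and 0.942 to 0.963 between the genotypes, so no array stood apart from its group. All 10 hepatocyte markers tested were measured well above 0, the lowest value being 1534 for F11.

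Tuba1b, Tuba1a and Tuba1c are consecutive protein-coding genes on chromosome 15 in the RefSeq annotation, and Tubb2a and Tubb2b are consecutive on chromosome 13. Tuba4a lies on chromosome 1, Tuba8 on 6, Tubb4b on 2 and Tubb5 on 17. The RefSeq promoter table (build GRCm38.p6) matched 8 of the 10 genes. The 250 bases before the start of 4 of them are shown because they belong to the tubulin whose level was lower in Pemt-/- liver (Tuba4a) and to 3 whose levels were higher with more than 1 probe set (Tuba8, Tubb2a, Tubb5). Capitals mark 4 short motifs read on either strand, namely the TATA box core TATAAA, the CCAAT box CCAAT, the GC box core GGGCGG and the letters TTTGAA. No marked motifs overlapped. The windows are chr1:75219295-75219544 on the minus strand for Tuba4a, chr6:121210484-121210733 on the plus strand for Tuba8, chr13:34078009-34078258 on the minus strand for Tubb2a and chr17:35838302-35838551 on the minus strand for Tubb5, each written 5′ to 3′ in the direction of transcription.
Tuba4a: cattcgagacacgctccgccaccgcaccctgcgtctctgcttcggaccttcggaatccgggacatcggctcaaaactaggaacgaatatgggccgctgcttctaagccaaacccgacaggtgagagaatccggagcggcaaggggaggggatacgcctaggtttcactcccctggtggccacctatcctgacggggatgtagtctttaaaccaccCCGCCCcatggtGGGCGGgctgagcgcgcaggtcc
Tuba8: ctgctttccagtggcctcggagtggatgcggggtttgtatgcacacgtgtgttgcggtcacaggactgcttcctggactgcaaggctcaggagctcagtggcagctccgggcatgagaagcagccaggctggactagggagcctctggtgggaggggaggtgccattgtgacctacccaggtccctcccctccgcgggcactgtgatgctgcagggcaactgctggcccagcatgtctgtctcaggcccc
Tubb2a: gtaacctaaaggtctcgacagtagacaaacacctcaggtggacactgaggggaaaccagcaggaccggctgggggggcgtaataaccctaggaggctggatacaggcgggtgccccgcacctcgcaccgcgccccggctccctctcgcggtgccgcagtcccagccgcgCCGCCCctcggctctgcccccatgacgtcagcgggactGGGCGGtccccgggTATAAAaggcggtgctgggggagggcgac
Tubb5: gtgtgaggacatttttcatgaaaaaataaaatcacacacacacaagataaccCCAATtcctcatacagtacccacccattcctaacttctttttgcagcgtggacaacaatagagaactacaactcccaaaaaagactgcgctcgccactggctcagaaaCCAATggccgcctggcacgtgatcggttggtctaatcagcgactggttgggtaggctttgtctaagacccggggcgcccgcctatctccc
The Tuba4a window held GGGCGG 2 times, the Tubb2a window held it 2 times and TATAAA 1 time, the Tubb5 window held CCAAT 2 times, and the Tuba8 window held none of the 4. Of the matched windows that are not shown, Tubb4b held CCAAT 5 times, GGGCGG 1 time and TTTGAA 1 time, Tuba1a CCAAT and GGGCGG 1 time each, Tuba1b GGGCGG 2 times and Tuba1c CCAAT 1 time. Of 32851 promoter windows of this length in the table, 12.4% held TATAAA, 33.8% CCAAT, 32.7% GGGCGG and 16% TTTGAA. The 4 windows shown therefore had no motif in common. A match of these letters is a description of the sequence and not evidence of a bound factor.

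Most tubulin probe sets were higher in Pemt-/- liver, and one alpha tubulin was lower. Of the 16 probe sets tested, 9 were higher in Pemt-/- liver at an adjusted p under 0.05, 2 were lower and 5 did not pass. Over all probe sets tested 10.3% were higher and 5.86% lower. The median log2 difference was 0.61 over the 16 tubulin probe sets and 0.02 over all probe sets. For 15 of the 16 both genotype means lay above the filter level, and the other, Tubb2b, is one of the 9 and had only its Pemt-/- mean above it, so its passing the filter rests on the group where it was high. With the brightest probe set of each gene, 6 of 8 tubulin genes were higher (Tuba1a, Tuba8, Tubb2a, Tubb2b, Tubb5 and Tubb6), Tuba4a was lower and Tubb4b did not pass, where 12.6% of 12949 genes were higher and 7.51% lower. The 9 higher probe sets were higher in 4 of 4 weeks and the 2 lower ones were lower in 4 of 4 weeks. The calls rest on the same weekly differences, so this count describes them and is no further support. The 4 Pemt-/- arrays lay above all 4 Pemt+/+ arrays for 8 probe sets and below all of them for 2, against 12.8% and 8.96% of all probe sets tested. The count of 11 fell to 5 without the week 3 arrays and to 7 without the week 4 arrays. It fell to 6 when the spread was estimated without an intensity trend, where Tuba1a, Tuba4a 1417373_a_at, Tubb2b and both Tubb5 probe sets did not pass.

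Differences are given as Pemt-/- minus Pemt+/+ on the scale log2(intensity + 16), with the standard error (SE) of the fit. The added constant shrinks differences of dim probe sets. Intensities are in the arbitrary linear units of the arrays and are compared only within a probe set, except where the markers of a cell type are summed. Means are given with the standard deviation (SD) over the 4 arrays of a genotype, which holds the change between weeks as well. Because whole liver was measured, a different number of cells of a type and a different amount of RNA per cell cannot be told apart.

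**Figure D1:**
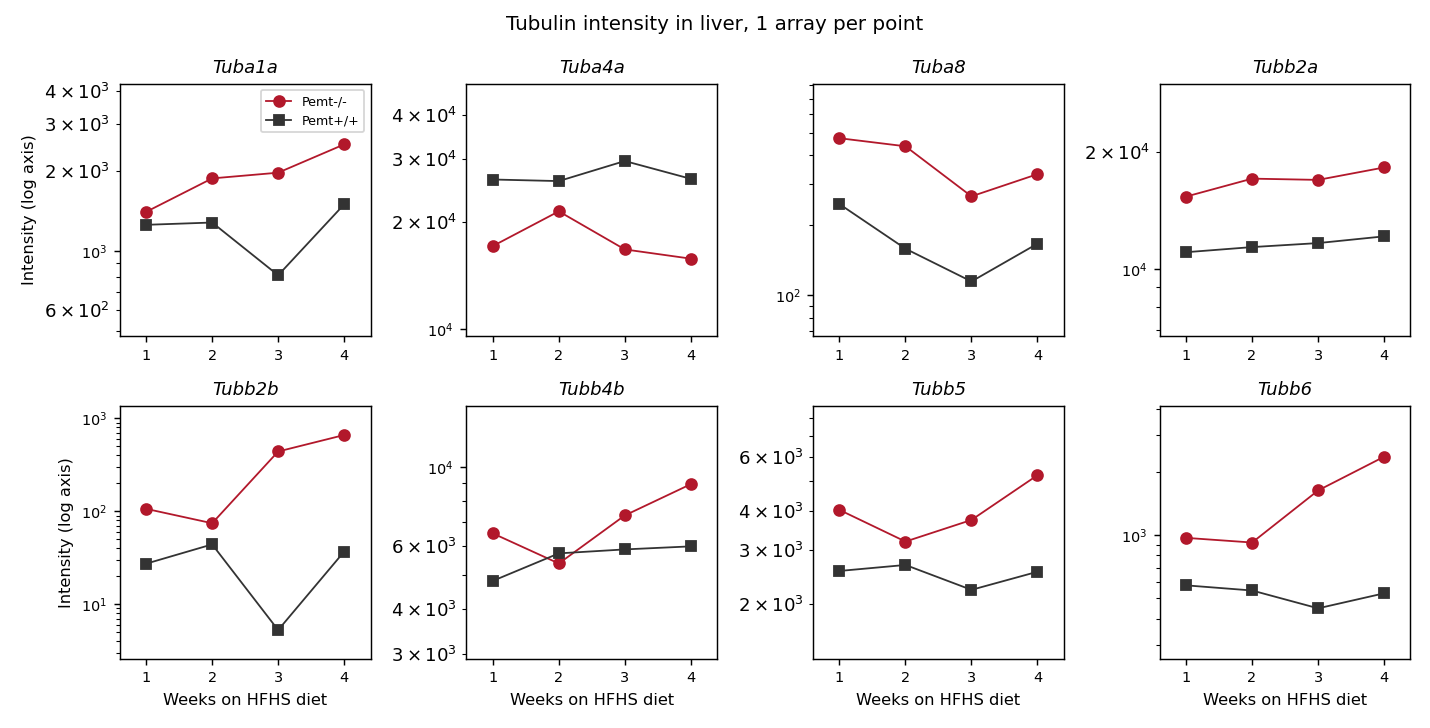
Intensity (log axis, scale set for each panel) against weeks on the HFHS diet for the brightest probe set of each of 8 tubulin genes, with 1 array per point, red circles for Pemt-/- and black squares for Pemt+/+ (lines join the weeks of a genotype). Pemt-/- lies above Pemt+/+ at every week for Tuba1a, Tuba8, Tubb2a, Tubb2b, Tubb5 and Tubb6 and below it at every week for Tuba4a, while the Tubb4b lines cross at 2 weeks.

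Among the alpha tubulins, Tuba4a was the one with the lower level in Pemt-/- liver. Its gene product is unusual among alpha tubulins in that the final tyrosine is not encoded. Probe set 1417373_a_at read 17097, 21412, 16728 and 15755 in Pemt-/- liver at 1, 2, 3 and 4 weeks. The Pemt+/+ readings were 26318, 26050, 29668 and 26435. Every Pemt+/+ array was brighter than every Pemt-/- array, and the narrowest gap was at 2 weeks. The means were 17748 ± 2507 and 27118 ± 1708 (SD, n = 4 each), a log2 difference of -0.62 ± 0.10 (SE) or 1.54-fold lower (adjusted p = 0.00592). A second probe set, 1417374_at, read 8020, 8761, 6859 and 6560 in Pemt-/- liver and 12615, 11498, 14292 and 12463 in Pemt+/+ liver in the same order of weeks. The groups again did not overlap, and the difference was -0.76 ± 0.12 or 1.69-fold lower (adjusted p = 0.00426). The third probe set, 1417375_at, was dim and read 67.3, 109, 63.3 and 146 against 105, 116, 146 and 25.4. It overlapped between the genotypes and did not share the direction, at 0.08 ± 0.44 with a 95% interval from -0.91 to 1.07 (adjusted p = 0.925), and without the week 4 arrays its value was -0.55. When the 3 probe sets were averaged into 1 value for the gene, the call for Tuba4a was lost (adjusted p = 0.117). The size depended on the normalization. After quantile normalization the difference was -0.37 for 1417373_a_at (adjusted p = 0.0155) and -0.60 for 1417374_at (adjusted p = 0.00772).

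Tuba8, a divergent alpha tubulin best known from testis and muscle, was higher in Pemt-/- liver with both of its probe sets. Probe set 1419518_at read 474, 437, 266 and 332 in Pemt-/- liver and 247, 158, 115 and 167 in Pemt+/+ liver. Both genotypes had their highest reading at 1 week and their lowest at 3 weeks, and the groups did not overlap. The means were 377 ± 95.4 and 172 ± 55 (SD, n = 4 each), and the difference of 1.08 ± 0.15 or 2.11-fold had the smallest p of the family (adjusted p = 0.00279). By the methods' t-test, added after seeing the data, it did not pass (adjusted p = 0.0630). Probe set 1446771_at read 270, 218, 293 and 173 against 58.1, 111, 65.2 and 115, again with no overlap. Its difference was 1.32 ± 0.27 or 2.50-fold (adjusted p = 0.0128), and it did not pass without the week 1 arrays (adjusted p = 0.0647) or the week 3 arrays (adjusted p = 0.0630).

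Tuba1a encodes a main alpha tubulin of growing neurons and of many dividing cells. Its single probe set, 1418884_x_at, read 1405, 1878, 1973 and 2521 in Pemt-/- liver and 1256, 1281, 811 and 1500 in Pemt+/+ liver. The Pemt-/- array was the brighter one in each week, but the Pemt-/- reading at 1 week lay below the Pemt+/+ reading at 4 weeks, so this was the one probe set called higher whose groups overlapped. The means were 1945 ± 458 and 1212 ± 289 (SD, n = 4 each), with a difference of 0.68 ± 0.17 or 1.60-fold (adjusted p = 0.0253). The call was lost without the week 3 arrays (adjusted p = 0.105) or the week 4 arrays (adjusted p = 0.0903). The ending x_at marks a probe set with probes that can bind related transcripts, and the alpha tubulin genes of this cluster are nearly identical in their coding sequence, so its signal may hold more than Tuba1a.

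With the brightest probe set of each gene, Tubb2b and Tubb6 had the largest differences among the beta tubulins. Tubb6 encodes a broadly expressed, divergent beta tubulin. Probe set 1416431_at read 971, 922, 1633 and 2364 in Pemt-/- liver and 576, 545, 448 and 528 in Pemt+/+ liver. The Pemt+/+ arrays stayed within a narrow range while the Pemt-/- arrays at 3 and 4 weeks were brighter than those at 1 and 2 weeks. The means were 1473 ± 677 and 524 ± 54.7 (SD, n = 4 each), and the difference was 1.36 ± 0.24 or 2.57-fold (adjusted p = 0.00688). Its other probe set, 1446353_at, was dim and did not share the direction. It read 85.5, 97.6, 118 and 101 against 63.2, 138, 172 and 133, a difference of -0.23 ± 0.22 with a 95% interval from -0.72 to 0.26 (adjusted p = 0.517). With both probe sets averaged the gene passed at 0.57 (adjusted p = 0.0333), and by the methods' t-test, added after seeing the data, 1416431_at did not pass (adjusted p = 0.0565).

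Tubb2b, a beta tubulin best known from the developing brain, was close to the dimmest values in Pemt+/+ liver. Probe set 1452679_at read 106, 74.4, 441 and 664 in Pemt-/- liver and 27.3, 44, 5.26 and 36.8 in Pemt+/+ liver. The groups did not overlap, and the Pemt-/- arrays fell into dimmer readings at 1 and 2 weeks and brighter ones at 3 and 4 weeks. The means were 321 ± 282 and 28.3 ± 16.8 (SD, n = 4 each), with a difference of 2.55 ± 0.57 or 5.86-fold (adjusted p = 0.0180). Because the Pemt+/+ readings were so low, the size depended on the added constant, and the log2 difference was 3.24 with a constant of 1 and 1.74 with 64. The Pemt+/+ mean of 5.37 on this log2 scale lay under the filter level of 5.94 and the Pemt-/- mean of 7.92 above it, so Tubb2b entered the test only through the Pemt-/- arrays, and at a filter at the 60th percentile it was not tested. With no filter the adjusted p was 0.0339. The call was lost without the week 3 arrays (adjusted p = 0.0667) or the week 4 arrays (adjusted p = 0.0750).

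Tubb2a, the neighbour of Tubb2b and a beta tubulin also abundant in brain, had the steadiest difference of the family. Probe set 1427347_s_at read 15356, 17071, 16945 and 18234 in Pemt-/- liver and 11055, 11395, 11668 and 12141 in Pemt+/+ liver. All Pemt-/- arrays were above all Pemt+/+ arrays, and the log2 difference was 0.47, 0.58, 0.54 and 0.59 at 1, 2, 3 and 4 weeks. The means were 16901 ± 1183 and 11565 ± 458 (SD, n = 4 each), a difference of 0.54 ± 0.08 or 1.46-fold (adjusted p = 0.00327). The ending s_at marks a probe set whose probes match more than 1 transcript, so a related beta tubulin can add to its level. Probe set 1427838_at read 505, 417, 532 and 620 against 301, 323, 292 and 314 and did not overlap either. Its difference was 0.71 ± 0.14 or 1.64-fold (adjusted p = 0.0117), and it did not pass without the week 3 arrays (adjusted p = 0.0644) or the week 4 arrays (adjusted p = 0.0643).

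Tubb5, a beta tubulin found in most tissues and prominent in dividing cells, was higher in Pemt-/- liver with both probe sets and by nearly the same amount. Probe set 1416256_a_at read 4035, 3188, 3744 and 5224 in Pemt-/- liver and 2562, 2679, 2226 and 2547 in Pemt+/+ liver. The lowest Pemt-/- reading, at 2 weeks, was still above the highest Pemt+/+ reading. The means were 4048 ± 859 and 2503 ± 194 (SD, n = 4 each), and the difference was 0.67 ± 0.13 or 1.59-fold (adjusted p = 0.00987). Probe set 1455719_at read 1295, 1450, 1593 and 2021 against 1078, 1082, 800 and 964, also without overlap. Its difference was 0.68 ± 0.15 or 1.60-fold (adjusted p = 0.0184). Without the week 3 arrays neither probe set passed (adjusted p = 0.0557 and 0.0967), and without the week 4 arrays 1455719_at did not pass (adjusted p = 0.0874) while 1416256_a_at was counted as passing at an adjusted p that rounds to 0.05, the threshold itself.

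Tubb4b, a beta tubulin of most tissues that is also used in cilia, was not called with any of its 6 probe sets. The brightest, 1423642_at, read 6515, 5368, 7313 and 8941 in Pemt-/- liver and 4799, 5728, 5876 and 5992 in Pemt+/+ liver. The Pemt-/- array was brighter at 1, 3 and 4 weeks and dimmer at 2 weeks. The difference was 0.31 ± 0.12 with a 95% interval from 0.04 to 0.58 (adjusted p = 0.111), and without the week 2 arrays it was 0.44 and passed (adjusted p = 0.0141). The other 2 probe sets tested had differences of -0.40 ± 0.28 (1438622_x_at, 95% interval -1.04 to 0.25, adjusted p = 0.382) and -0.11 ± 0.13 (1456470_x_at, 95% interval -0.40 to 0.18, adjusted p = 0.603). The 3 untested probe sets (1439416_x_at, 1456031_at and 1456078_x_at) had mean intensities of 13.9 to 49.2 in either genotype and overlapped.

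**Figure D2:**
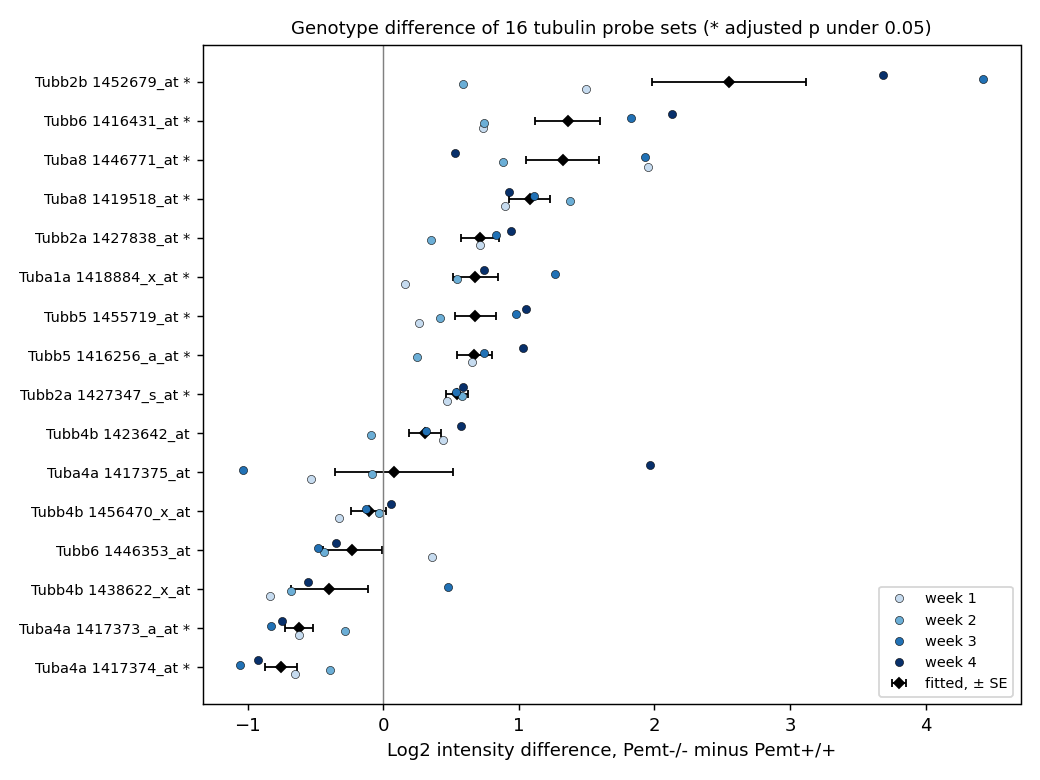
Log2 intensity difference (Pemt-/- minus Pemt+/+) of the 16 tubulin probe sets tested, with the fitted value ± SE as a diamond and the 4 weekly differences as circles that darken from week 1 to week 4; a star marks an adjusted p under 0.05. The 9 called probe sets at the top have all 4 circles right of 0, and the 2 called Tuba4a probe sets at the bottom have all 4 left of 0.

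Within a week each genotype had 1 array, so weekly differences carry no test and are counted at 1.5-fold or more on the same scale. At 1 week 6 of the 16 tubulin probe sets were higher by that much and 3 lower, where 14.9% of all probe sets were higher and 9.46% lower. The counts at 2 weeks were 4 and 1, against 12.8% and 12.0% of all probe sets. At 3 weeks they were 8 and 3, against 17.2% and 12.3%. At 4 weeks they were 9 and 2, against 18.1% and 12.7%. The median tubulin difference on the log2 scale was 0.40, 0.30, 0.64 and 0.66 at 1, 2, 3 and 4 weeks, and the median of all probe sets was 0.05, -0.01, 0.02 and 0.04. The differences were thus smallest at 2 weeks and larger at 3 and 4 weeks for the median tubulin, though single genes had their own order. For Tubb6 the weekly differences were 0.74, 0.74, 1.83 and 2.13, for Tubb2b 1.5, 0.59, 4.43 and 3.69, and for Tuba8 (1419518_at) 0.90, 1.38, 1.11 and 0.93. Tuba4a (1417374_at) differed by -0.65, -0.39, -1.06 and -0.92.

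Whether the genotypes diverged over the weeks was tested as the change in log2 intensity per week in Pemt-/- minus that in Pemt+/+. No tubulin probe set passed by limma, and neither did any of the 27022 probe sets (0%). Without adjustment 3 of 16 tubulin probe sets and 1818 of all probe sets (6.73%) had a p under 0.05, and 11 of the 16 differences were above 0. The 3 were Tubb6 1416431_at, with a difference in change per week of 0.53 ± 0.13 (adjusted p = 0.536), Tubb5 1455719_at with 0.29 ± 0.10 (adjusted p = 0.682) and Tubb2b with 1.04 ± 0.37 (adjusted p = 0.685). In Pemt-/- liver alone the Tubb6 probe set changed by 0.46 ± 0.09 per week (adjusted p = 0.0927) and in Pemt+/+ liver by -0.06 ± 0.09. Over all probe sets 0.0296% passed with a change per week above 0 in Pemt-/- liver and 0% passed in Pemt+/+ liver, and no tubulin was among them. Unadjusted p-values under 0.05 numbered 5 of 16 in Pemt-/- liver, where all probe sets had 10.3%, and 1 of 16 in Pemt+/+ liver, where all had 5.45%. Tubb2a (1427347_s_at) and Tuba8 (1419518_at) had differences in change per week of 0.03 ± 0.06 and -0.02 ± 0.18, with 95% intervals of -0.11 to 0.17 and -0.42 to 0.39.

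**Figure D3:**
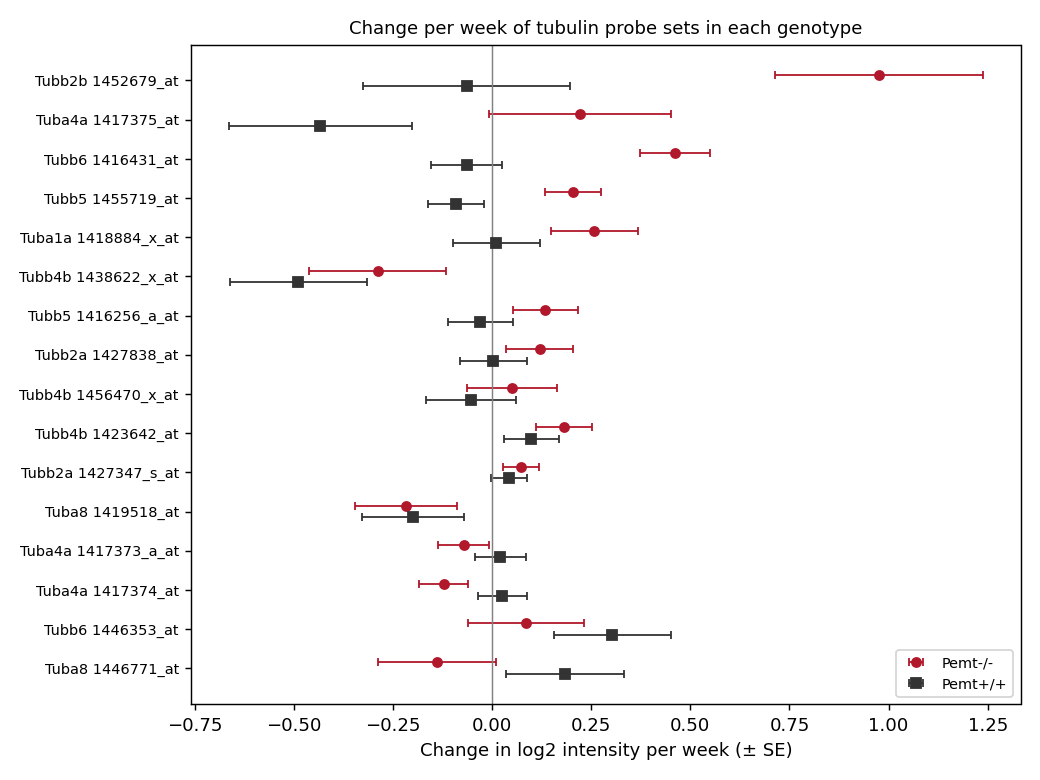
Change in log2 intensity per week (± SE) of the 16 tubulin probe sets tested, red circles for Pemt-/- and black squares for Pemt+/+, ordered by the difference between them. Tubb2b and Tubb6 (1416431_at) have the highest Pemt-/- values, at 0.98 and 0.46 per week, and no difference passed the adjusted threshold.

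No tubulin outside the 10 genes passed the test. Of 10 further tubulins, 4 could be tested, and their median log2 difference was -0.07. Tubg1, the gamma tubulin that starts new microtubules, had means of 792 ± 55.0 in Pemt-/- liver and 971 ± 79.0 in Pemt+/+ liver (SD, n = 4 each), a difference of -0.29 with a 95% interval from -0.55 to -0.03 (adjusted p = 0.125). Tubd1, Tubb1 and Tube1 had differences of 0.38, -0.16 and 0.02. Tubb3, Tubb4a, Tuba3b and Tubg2 were too dim to test, and Tuba3a and Tubal3 had no probe set in the annotation used.

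Newly made tubulin is folded by prefoldin, the chaperonin CCT and a set of cofactors. Of 21 such genes tested, 1 was higher and none lower, with a median log2 difference of -0.02, where 12.6% of all genes were higher and 7.51% lower. The count called ran from 0 to 3 over the alternatives, with 2 without the week 2 arrays and 3 with the week as a number. The 1 was Pfdn4, a prefoldin subunit, at 684 ± 60.5 in Pemt+/+ and 917 ± 87.2 in Pemt-/- liver (SD, n = 4 each) or 1.33-fold higher (adjusted p = 0.0344). Pfdn4 did not pass under quantile normalization (adjusted p = 0.0901), without the intensity trend (0.0821) or without the arrays of week 1 (0.0996), week 3 (0.129) or week 4 (0.119). Ttc5, which recognises tubulin on the ribosome and triggers decay of its mRNA, differed by 0.46 and did not pass (adjusted p = 0.0693). The cofactor gene Tbce differed by 0.38 (adjusted p = 0.0671). None of 13 tubulin modification genes (median 0.07) and none of 11 microtubule nucleation genes (median 0.08) was called in either direction, against the same shares of all genes. Under the alternatives, 1 of 16 tubulin modification genes was called with no filter and 1 of 11 with the mean of the probe sets of each gene.

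Proteins that bind microtubules gave a mixed picture. Of 22 microtubule-associated and plus-end protein genes, 3 were higher and none lower (median 0.25). Stmn1, whose product stathmin sequesters tubulin dimers, rose 4.69-fold (adjusted p = 0.000486), from 877 ± 178 in Pemt+/+ to 4212 ± 1057 in Pemt-/- liver (SD, n = 4 each). Fignl1, related to the microtubule-severing protein fidgetin, was higher by 2.80 on the log2 scale (adjusted p = 0.00135), and Map4, the broadly expressed microtubule-stabilising protein, was 1.75-fold higher (adjusted p = 0.0118). Of 20 transport motor genes, 1 was higher (median 0.20), namely the dynein heavy chain gene Dync1h1 at 1.45-fold (adjusted p = 0.00923). The count of transport motor genes ran from 0 to 3 over the alternatives. It was 0 without the week 3 arrays, without the week 4 arrays or without the intensity trend. It was 2 without the week 1 or the week 2 arrays and 3 with median centring or with the week left out. Map4 and Dync1h1 did not pass without the week 3 arrays (adjusted p = 0.0581 and 0.0626), without the week 4 arrays (0.0502 and 0.0576) or with the mean of the probe sets of each gene (0.120 and 0.318). Without the intensity trend they did not pass either (adjusted p = 0.0504 and 0.0536). Of 18 mitotic spindle genes, 15 were higher and none lower, with a median of 2.36. The 4 with the smallest p were the spindle kinesins Kifc1 and Kif2c, with log2 differences of 2.97 and 3.01, the spindle protein gene Hmmr at 2.54 and the midzone bundling protein gene Prc1 at 2.53, of which Kif2c did not pass with the mean of its probe sets (adjusted p = 0.119). For 5 of the 18, Kifc1 and Kif2c among them, the Pemt+/+ mean lay under the filter level, as it did for Fignl1, so these genes entered the test only through the Pemt-/- arrays. Their size depended on the added constant, and with constants of 1 and 64 it was 3.82 and 1.90 for Kifc1, 3.69 and 2.13 for Kif2c and 3.67 and 1.79 for Fignl1. At a filter at the 60th percentile 6 spindle genes were tested and 6 called. That filter also used the mean over all 8 arrays, so a gene bright only in Pemt-/- liver could still enter it. Hmmr and Prc1, for example, had Pemt+/+ means of 6.72 and 6.68 on the log2 scale and Pemt-/- means of 9.26 and 9.21. The count at this filter is therefore no check on how the genes entered the test. Genes of the other filament systems were also higher, at 10 of 13 actin and intermediate filament genes with a median of 0.99, among them Tmsb10 at 4.10-fold and Tmsb4x at 1.99-fold (both bind actin monomers), tropomyosin Tpm1 at 2.41-fold and the lamin gene Lmna at 2.47-fold. By the methods' t-test 6 of these 13 passed. These counts compare with 12.6% of all genes higher and 7.51% lower.

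**Figure D4:**
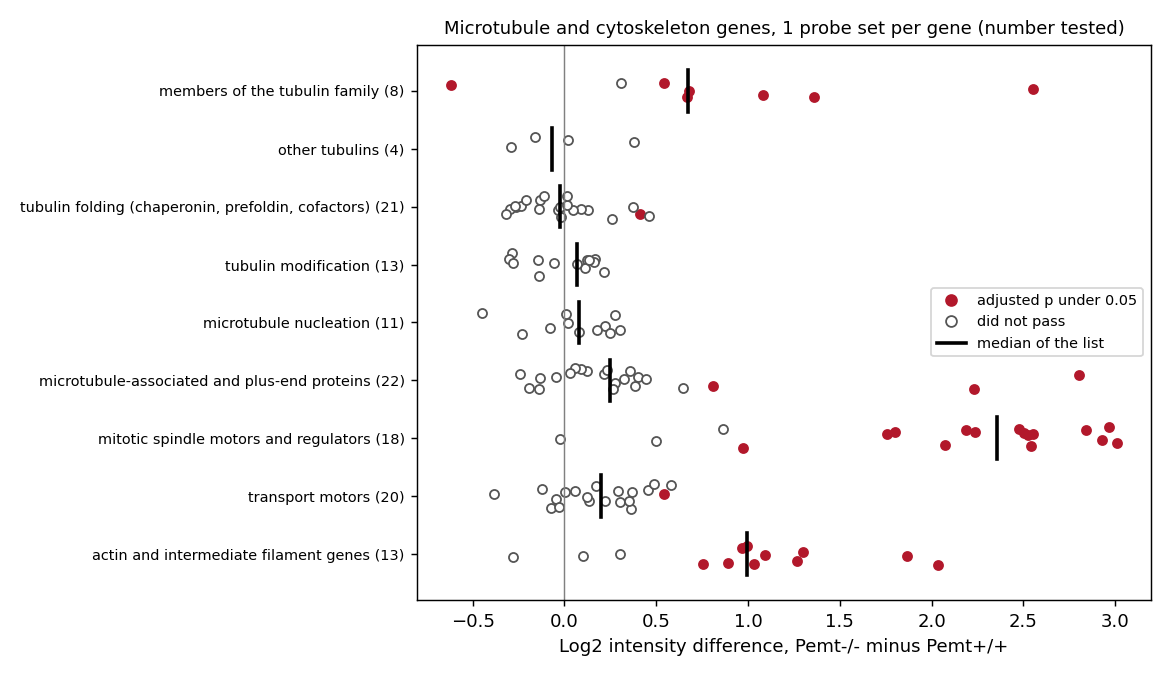
Log2 intensity difference (Pemt-/- minus Pemt+/+) of each tested gene, 1 probe set per gene, in the tubulin family and 8 further cytoskeleton lists; red points passed the adjusted threshold, open points did not, and bars are list medians. The tubulin median of 0.67 lies between those of the folding, modification and nucleation lists, near 0, and that of the mitotic spindle list at 2.36.

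Marker genes of several cell types differed between the genotypes along with the tubulins. Their counts compare with 12.6% of all genes higher and 7.51% lower. All 11 proliferation markers tested were higher in Pemt-/- liver, and their summed intensity was 10710 to 20063 there and 2607 to 4815 in Pemt+/+ liver. All 12 stellate cell and matrix markers were higher, with sums of 42909 to 64042 and 15190 to 21089. Among them Reln did not pass with the mean of its probe sets (adjusted p = 0.587), and Timp1 did not pass by the methods' t-test (adjusted p = 0.0605). Of 11 macrophage markers tested 10 were higher, with sums, over the 12 that had a probe set, of 21071 to 36197 and 9355 to 13138. Of 6 cholangiocyte markers 2 were higher, or 1 without the arrays of week 1, 3 or 4, with sums of 1042 to 1956 and 569 to 939. All 10 hepatocyte markers were lower, with sums of 240154 to 308117 and 326680 to 361004, but after quantile normalization 3 of the 10 were called, after median centring 5, and without the arrays of 1 week 5 (week 1) or 3 (week 3 or week 4). For each of these 5 lists the sums of the genotypes did not overlap. A sum adds probe sets of different brightness, so the brightest genes of a list weigh most in it. Of 8 sinusoidal endothelial markers 4 were lower and none higher, with overlapping sums of 4629 to 10162 and 7915 to 11280, and without the arrays of week 1, 3 or 4 the number called was 1, 0 and 0. Lymphocyte markers (3 tested) and neuronal markers (2 tested) gave no call, though without the week 2 arrays 1 of the 2 neuronal markers was called. Of 4 platelet and megakaryocyte markers Pf4 was higher. The sums of that list, over the 5 that had a probe set, were 1024 to 1329 in Pemt-/- and 603 to 850 in Pemt+/+ liver. They did not overlap either, although only 1 of the 4 was called. For 1 proliferation marker, 1 macrophage marker and 1 cholangiocyte marker (Plk1, Trem2 and Cldn7) the Pemt+/+ mean lay under the filter level. No marker in these lists was listed at 0, and the lowest reading was 0.905 for the neuronal gene Snap25. The part of these cell types in the tubulin differences was not tested.

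The genes whose weekly pattern lay nearest to that of Tuba8 (1419518_at) were found by the root mean square distance over the 4 weekly log2 differences among 12941 genes. They were Pqlc3 at a distance of 0.0953, Rgs5 at 0.143, Zbed3 at 0.147, Epb41l2 at 0.151 and Hand2 at 0.159. The weekly differences of Pqlc3 were 1.06, 1.38, 1.18 and 0.86, next to 0.90, 1.38, 1.11 and 0.93 for Tuba8. With 4 points from 8 arrays that every gene shares, this likeness is a description only.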

How the data were processed

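RNA of 8 mouse livers or liver pools, 1 per genotype and week, was hybridised to Affymetrix arrays. The authors deposited linear intensity values from Affymetrix Expression Console (version and summary method not given in the sources used here), scaled so that the mean without 2% of probe sets at each end was 500.0 on every array. After removal of 64 control probe sets, 45037 remained, of which 34945 paired with 1 gene, 932 with several and 9160 were unnamed; 34741 matched the RefSeq table of GRCm38.p6. Values were taken as log2(intensity + 16). Probe sets with a mean above the 40th percentile entered a linear model of week (4 levels) and genotype in limma (version 3.58.1, R 4.3.3; lmFit, eBayes with a trend). The test was two-sided with Benjamini-Hochberg adjustment over 27022 probe sets at 0.05. For the change per week, week was numeric within genotype. On simulated data of 27022 probe sets, the genotype fit recovered 73% of 100 probe sets changed by 1 on the log2 scale and 99% of 100 changed by 2, with 18 false calls, and the change-per-week fit 71% of 200 changed by 1.2 per week, with 2 false calls. The simulated noise was independent between probe sets, and far fewer were changed than the 4372 called in the real data. These rates therefore check the code and do not carry over to the real data. No detection calls were used, and the number of arrays limits the precision. One probe set per gene means the one with the highest mean.

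The replicate number is the week. Arrays of the same week deviated from their genotype means with correlations of 0.10, -0.02, -0.03 and 0.11. The members and gene lists were chosen with earlier results of these data known. Named were all member probe sets, up to 4 called genes with the smallest p in each pathway list, genes of the lists that did not pass but are described, and the 5 genes nearest in weekly pattern to the member with the smallest p. Alternatives changed the filter, added constant, normalization, trend, probe set rule, week term and arrays left out.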

Additional observations from a re-analysis of the deposited data

Results flagged for a closer look

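In Tuba4a probe set 1417373_a_at, the Pemt+/+ array of 3 weeks read 29668 while the other 3 Pemt+/+ arrays read 26050 to 26435, a gap of 0.894 of the whole range of that group. In the untested Tubb4b probe set 1439416_x_at, the Pemt+/+ array of 1 week read 54.7 while the others read 15.6 to 16.3, a gap of 0.982 of the range. These are 2 of 38 groups of 4 arrays looked at with Dixon's 95% critical value, and chance alone marks about 1 in 20 groups. The Tuba4a difference without the week 3 arrays kept its direction and its call.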

How the results depend on the processing

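The 11 calls among tubulin probe sets (9 higher, 2 lower) fell to 6 (5 higher, 1 lower) when the spread was estimated without an intensity trend. With 1 probe set per gene 7 of 8 tubulin genes were called, 1 of them lower, and with the mean of a gene's probe sets 6 of 8, 0 of them lower. By the methods' t-test, added after seeing the data, 9 were higher and 2 lower at the unadjusted threshold of 0.05, and 5 passed after Benjamini-Hochberg adjustment (3 higher, 2 lower), with Tuba1a, Tuba8 1419518_at, Tubb2b, both Tubb5 probe sets and Tubb6 lost. Leaving out the 2 arrays of 1 week gave 5 to 12 calls, 3 to 10 of them higher and 2 lower, with 5 without week 3 and 7 without week 4, the 7 including Tubb5 1416256_a_at at an adjusted p of 0.05 after rounding. Without the replicate block, that is with the week left out, the counts were 11, 9 and 2. Quantile normalization, median centring, added constants of 1 and 64 and no filter also gave 11 calls, and a filter at the 60th percentile gave 10 of 12 tested. Among those 10, Tuba8 1446771_at entered the stricter filter only through the Pemt-/- arrays, with log2 means of 6.64 in Pemt+/+ and 7.97 in Pemt-/- liver. Sizes moved more than the count. Under quantile normalization Tuba4a 1417373_a_at went from -0.62 to -0.37 and Tubb2a 1427347_s_at from 0.54 to 0.75. Over all probe sets the calls numbered 4372 in the reported fit, and they were 2348 without the trend. Differences of 1.5-fold or more at 2 weeks fell from 5 to 3 with a constant of 64. The difference in change per week gave 0 calls under each alternative run. Of the values that were not called, Tubb4b 1423642_at changed sign with the mean of probe sets (-0.080), and Tuba4a 1417375_at ran from -0.55 to 0.45 when the arrays of 1 week were left out. Tuba4a 1417374_at and Tubb2a 1427347_s_at passed under every alternative that was run on them. Of 167 reruns of the 11 called probe sets, 23 lost the call and 0 reversed. The number of arrays, 4 per genotype, limits the precision of all of these values.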
